A study of Mus musculus with 12 samples.

Results

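The endoplasmic reticulum unfolded protein response was described here by 34 genes in mouse cumulus cells, the granulosa-lineage cells around the oocyte. The genes were chosen by name as sensors, chaperones, disulfide enzymes, degradation factors and translocation genes of this pathway, and all 34 were found among the 23997 rows of the deposited expression table. Every mouse was a C57BL/6J female injected with PMSG (5 IU), a gonadotropin from pregnant mares that stimulates follicle growth. The groups were wild type (WT) and ClpP-/- (KO), which lack the proteolytic subunit of a protease of the mitochondrial matrix, each at 3 and at 6 months of age, with 3 libraries per group and 12 in all. Each library held cDNA of 100 pooled cumulus cells of a single mouse, collected 44 h after the hormone by the treatment protocol and 48 h after it by the series description. The labels also give a passage of P1. The sources used here do not say how the KO allele was made. The comparisons ask what loss of ClpP, age, and both together change.

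The endoplasmic reticulum folds secreted and membrane proteins, and unfolded proteins there are sensed by proteins of its membrane. IRE1, encoded by Ern1, is a kinase and endoribonuclease that cuts Xbp1 mRNA so that it encodes an active transcription factor. ATF6 and its relative ATF6B are transcription factors that are released from the membrane by cleavage, and PERK, encoded by Eif2ak3, phosphorylates a translation initiation factor and slows protein synthesis. Together they induce chaperones, disulfide enzymes and the machinery that draws misfolded proteins into the cytosol for degradation. Granulosa-lineage cells secrete inhibins and components of the cumulus matrix, whose folding passes through this compartment.

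Values are FPKM, fragments scaled by transcript length and library size, so levels of different genes can be set side by side. The targeted gene Clpp stood at 88.2 to 146 FPKM in the 6 WT libraries and at 0.769 to 6.63 in the 6 KO libraries, and the granulosa gene Inha at 2419 to 6334 in all 12. The table gives no read counts, and the spacing of its low values put relative depth at 0.64 to 1.0 of the deepest library. FPKM summed to 1010583 and 1366495 in the KO libraries 3 of 3 and 6 months, and to 627194 to 883858 in the others. Summed levels of 9 granulosa and cumulus markers were 2727 to 7002 FPKM in every library, the lowest being 3-month KO library 3. Of that lowest sum Inha gave 2590, so the sum says little about the other markers. Over the 12 libraries Inhba ran from 11.04 to 1122 FPKM, Fst from 31.5 to 649 and Foxl2 from 0.582 to 16.1. Averaged over the 9 as log2(FPKM + 1) minus each gene's mean, 3-month KO library 3 stood at -1.48. The other libraries stood at -0.65 to 0.77. Library 3 of each group stood apart in blood and leukocyte markers, and the KO libraries 3 in theca and stromal markers and in oocyte markers. The 10 theca and stromal markers summed to 7690 and 10110 FPKM in the KO libraries 3 of 3 and 6 months and to 3.59 to 1044 in the other 10 libraries. Most of the sums in the KO libraries 3 was Cyp11a1, at 5942 and 7989 FPKM. In these 2 libraries Cyp17a1 stood at 932 and 1062 FPKM and Dcn at 98.96 and 154, but Col1a1 at only 0.805 and 2.104. Which cells these transcripts came from was not tested, so the name of the list does not identify a cell type. Blood and leukocyte markers (8) summed to 740, 703, 1311 and 523 FPKM in library 3 of 3-month WT, 3-month KO, 6-month WT and 6-month KO, and to 29.2 or less in the other 8. Oocyte markers (8) summed to 47.2 and 207 in the KO libraries 3 and to 12.1 or less elsewhere. Endothelial markers (6) summed to 4.18 to 25.7 and surface epithelium markers (6) to 20.2 to 249, the highest of the latter being 3-month WT library 2. Ptprc, Bmp15 and Upk1b were at 0 in all 3-month WT libraries, Msln in all 3-month KO libraries and Zp1 in all 6-month WT libraries. Because each library is a bulk sample, fewer cells of a type and less RNA per cell cannot be told apart.

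Several of these genes carry in their promoters the endoplasmic reticulum stress element (ERSE), where NF-Y binds the CCAAT end and ATF6 or XBP1 the CCACG end. Promoters were RefSeq windows on GRCm38.p6 from 250 bases before to 50 bases after a start site. They were searched on both strands for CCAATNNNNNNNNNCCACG and for the shorter ERSE-II, ATTGGNCCACG. All 34 genes matched a RefSeq symbol, and 29 of them had a promoter there, the exceptions being Atf6, Hyou1, Manf, Derl1 and Sec61a1. The ERSE was found in 9 of the 29 genes (31%), against 37 of 27025 genes with a promoter (0.137%) and 17 of 8965 that were also tested here (0.19%). ERSE-II was found in 2 members, Herpud1 and Dnajb11 (6.9%, against 0.0444% of all genes and 0.0892% of those tested), and 0 members held both. The element was defined on promoters of such genes, so these shares describe the module and test nothing. The matches are shown because ERSE or ERSE-II is what 11 of the 29 members have in common. Each is read 5′ to 3′ on its own strand with 5 flanking bases, and capitals mark the letters that were fixed in the search.
Hspa5: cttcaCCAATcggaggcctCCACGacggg
Hsp90b1, distal: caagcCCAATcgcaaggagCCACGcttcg
Hsp90b1, proximal: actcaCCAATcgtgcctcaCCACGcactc
Calr: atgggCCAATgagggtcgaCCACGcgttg
Canx: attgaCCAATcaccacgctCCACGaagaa
Dnajc3: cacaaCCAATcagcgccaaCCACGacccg
Pdia6: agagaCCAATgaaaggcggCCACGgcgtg
Creld2: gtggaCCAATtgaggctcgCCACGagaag
Derl3: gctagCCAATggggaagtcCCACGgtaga
Syvn1: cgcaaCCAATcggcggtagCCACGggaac
Herpud1, ERSE-II: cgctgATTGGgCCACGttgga
Dnajb11, ERSE-II: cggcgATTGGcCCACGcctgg

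The Hspa5 match, with its flanks, lies at chr2:34772020-34772048 on the plus strand. Its match runs from -65 to -47 bases from the RefSeq start site, and a GENCODE transcript of Hspa5 that starts further upstream includes it. Hsp90b1 alone held 2 matches, at chr10:86705633-86705661 and chr10:86705528-86705556, on opposite strands. The others lie at chr8:84847070-84847098 (Calr), chr11:50325795-50325823 (Canx), chr14:118937822-118937850 (Dnajc3), chr12:17266486-17266514 (Pdia6), chr15:88819515-88819543 (Creld2), chr10:75893237-75893265 (Derl3) and chr19:6046527-6046555 (Syvn1), and the ERSE-II matches at chr8:94386372-94386392 (Herpud1) and chr16:22857847-22857867 (Dnajb11, just after its start site). The Creld2 match is also in the promoter of Alg12, a mannosyltransferase gene of the same compartment that is transcribed away from it. Likewise, the Calr match is also in the promoter of 1700122E12Rik. The 250 bases before the Creld2 start, chr15:88819396-88819645 on the plus strand, are shown because that gene had a wide spread among libraries. Capitals mark the match, which here reads as its reverse complement.
Creld2 promoter: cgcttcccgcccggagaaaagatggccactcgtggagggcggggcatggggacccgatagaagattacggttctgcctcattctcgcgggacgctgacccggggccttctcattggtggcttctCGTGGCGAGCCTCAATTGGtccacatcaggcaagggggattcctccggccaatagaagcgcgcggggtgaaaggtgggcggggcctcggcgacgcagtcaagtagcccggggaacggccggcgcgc

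The IRE1 sites of Xbp1 are shown because they limit what the table can say about that arm. Capitals mark the 26 bases that IRE1 removes, at chr11:5524279-5524304 (GRCm38, plus strand, GENCODE M21), in exon 4 of a transcript with 5 exons and within the coding sequence.
Xbp1: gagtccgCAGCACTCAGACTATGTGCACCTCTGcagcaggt
FPKM are summed per gene, so Xbp1 levels below do not separate mRNA with these 26 bases from mRNA without them.

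All 34 genes were above 0 in all 12 libraries and all passed the filter for testing, which asked for 1 FPKM in 3 or more libraries. Of these, 28 had a mean above that of the median gene tested (7.95 FPKM), and the median mean of the module was 79.2 FPKM. Mean levels were 100 FPKM or more for 14 genes and under 10 FPKM for 7. Sensors and their transcription factors other than Xbp1 were scarce, with means of 1.87 to 6.40 FPKM. Disulfide enzymes were abundant, with a median mean of 216 FPKM. The lowest mean was that of Ern1 (1.87 FPKM) and the highest that of Hspa5 (907 FPKM). Spread within groups was wide. The median SD of log2(FPKM + 1) within groups was 0.56 for the module and 0.50 for all 11196 genes tested, and it ran from 0.28 for Ssr1 to 1.21 for Herpud1. The map of all members by library shows how the libraries differ.

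**Figure D1:**
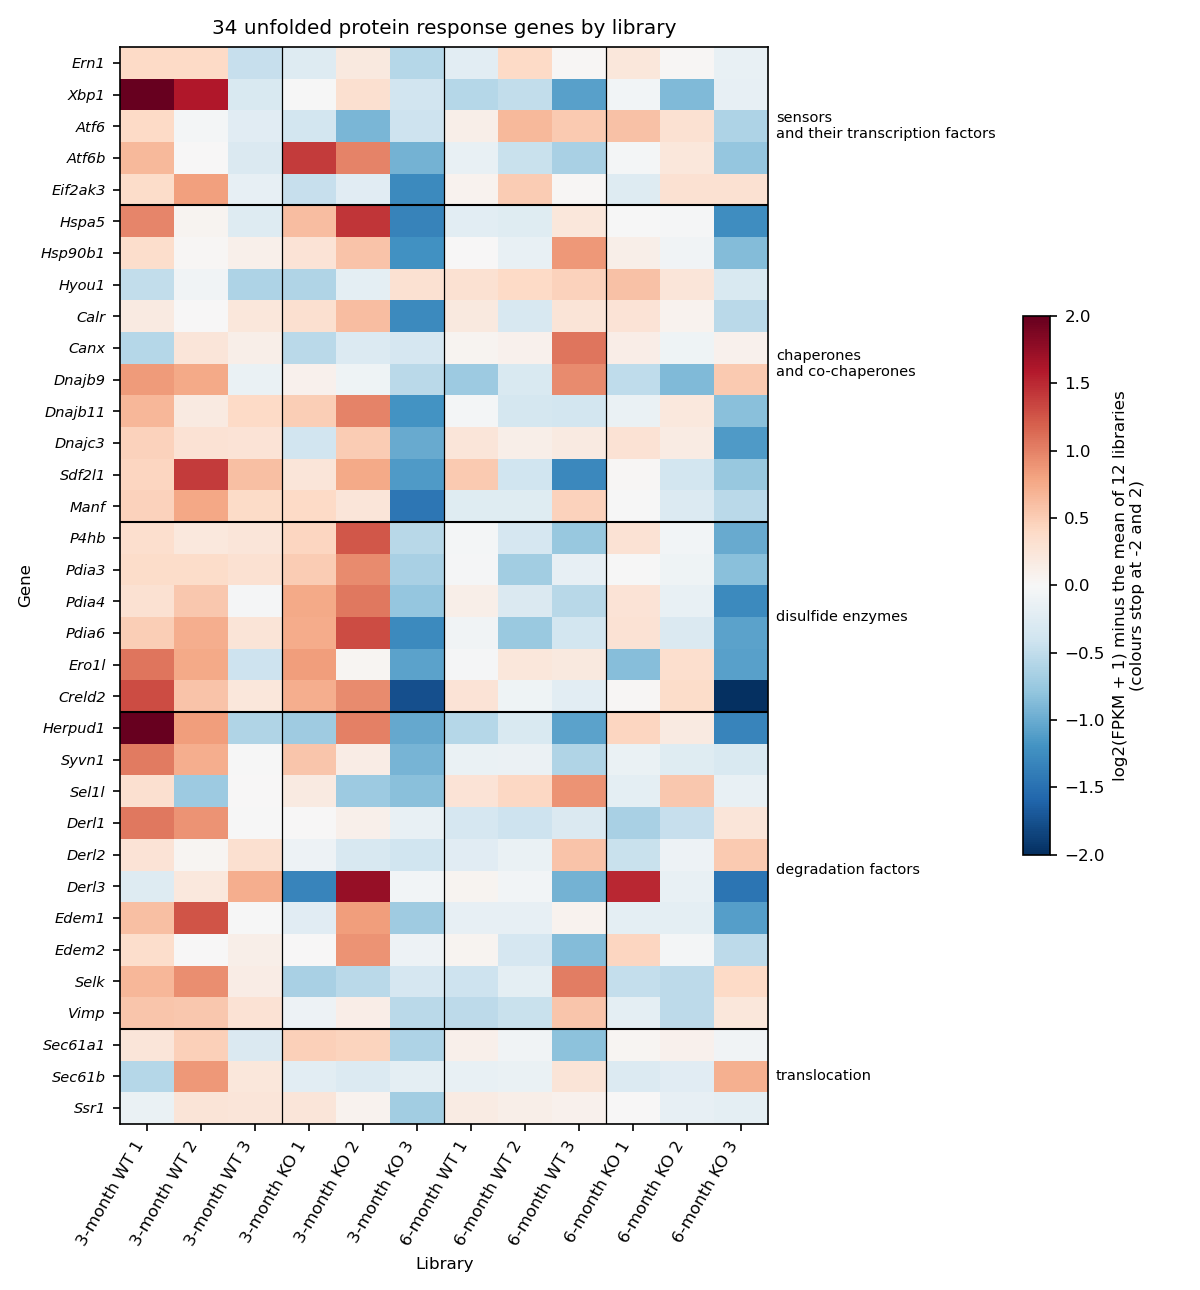
Each row is a gene, grouped by role, and each column a library; colour gives log2(FPKM + 1) minus that gene's mean over 12 libraries, and colours stop at -2 and 2. In the KO libraries 3 of both ages 22 of the 34 genes reach their lowest level, against 23.9% of all genes tested. In 3-month WT library 1, WT library 2 or KO library 2, 24 reach their highest. Those libraries were picked after seeing the values, and the share of all genes was not computed for them.

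Among the sensors and their transcription factors, Xbp1 (chr11:5520659-5525893, plus strand) was by far the most abundant. In order of library 1, 2 and 3, it stood at 653, 490.1 and 129 FPKM in 3-month WT, 159, 199.9 and 123 in 3-month KO, 108, 113 and 74.7 in 6-month WT and 155, 86.3 and 143 in 6-month KO. The 2 highest values were those of 3-month WT libraries 1 and 2, and 3-month WT library 3 lay within the range of 3-month KO. Atf6b, which encodes the ATF6 relative, came next with 9.30, 5.58 and 4.37 FPKM in 3-month WT, 16.3, 12.1 and 2.41 in 3-month KO, 4.93, 3.81 and 3.19 in 6-month WT and 5.36, 6.65 and 2.84 in 6-month KO. It was highest in 3-month KO libraries 1 and 2 and lowest in 3-month KO library 3, so the groups overlapped. Eif2ak3 (chr6:70844515-70905245, plus strand), the PERK gene, stood at 2.96, 4.41 and 1.76 FPKM in 3-month WT, 1.23, 1.63 and 0.266 in 3-month KO, 2.23, 3.38 and 2.11 in 6-month WT and 1.58, 2.79 and 2.78 in 6-month KO. All 3-month KO libraries were below all 3-month WT libraries for Eif2ak3, at levels of 0.266 to 4.41 FPKM. Atf6 stood at 5.46, 3.79 and 3.18 FPKM in 3-month WT, 2.82, 1.60 and 2.69 in 3-month KO, 4.31, 6.67 and 6.09 in 6-month WT and 6.35, 5.09 and 2.22 in 6-month KO, and again the 3-month KO values were all below the 3-month WT values. Ern1, the IRE1 gene, was the scarcest member at 0.893 to 2.69 FPKM over the 12 libraries, and its groups overlapped.

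Chaperones and co-chaperones were led by Hspa5 (chr2:34771970-34777547, plus strand), which encodes BiP, the Hsp70 chaperone of the compartment that also holds the sensors inactive. It stood at 1563, 823 and 660.0 FPKM in 3-month WT, 1209, 2141 and 313 in 3-month KO, 681, 669 and 926 in 6-month WT and 785, 777 and 332 in 6-month KO. The highest and the lowest of the 12 values were both in 3-month KO, in libraries 2 and 3. Hsp90b1, which encodes the Hsp90 chaperone GRP94, stood at 695, 552 and 584 FPKM in 3-month WT, 658, 806 and 235 in 3-month KO, 547, 494 and 998 in 6-month WT and 593, 518 and 298 in 6-month KO. It too was lowest in the KO libraries 3. Calr and Canx encode the lectin chaperones calreticulin and calnexin. Calr stood at 370.2, 328 and 383 FPKM in 3-month WT, 411, 503 and 135 in 3-month KO, 376, 262 and 393 in 6-month WT and 399, 345 and 224 in 6-month KO. The KO libraries 3 lay below the other 10 for Calr. Canx stood at 64.5, 114 and 105 FPKM in 3-month WT, 66.1, 80.1 and 76.6 in 3-month KO, 100.2, 103 and 205 in 6-month WT and 106, 91.2 and 102 in 6-month KO. Its lowest value was in 3-month WT library 1, so that gene did not share the order of Calr. Manf, a small stress-induced protein of the compartment, ranged from 107 FPKM in 3-month KO library 3 to 499.7 in 3-month WT library 2. Mean levels were 97.6 FPKM for Dnajb11, 43.5 for Dnajc3 and 31.8 for Dnajb9, all co-chaperone genes of BiP. Sdf2l1, whose protein works with that of Dnajb11, stood at 87.3, 172 and 98.5 FPKM in 3-month WT, 76.7, 110.4 and 29.1 in 3-month KO, 93.8, 49.1 and 25.9 in 6-month WT and 66.0, 49.9 and 37.9 in 6-month KO. Its highest value was in 3-month WT library 2 and its lowest in 6-month WT library 3. Hyou1, a nucleotide exchange factor of BiP, was scarce. Its values were 1.14, 1.88 and 0.963 FPKM in 3-month WT, 1.00, 1.64 and 2.75 in 3-month KO, 2.74, 2.97 and 3.15 in 6-month WT and 3.54, 2.56 and 1.44 in 6-month KO, with every 6-month WT library above every 3-month WT library.

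Disulfide enzymes make and reshuffle disulfide bonds. Pdia3, which works with the lectin chaperones, stood at 638, 635 and 613 FPKM in 3-month WT, 702, 953 and 314 in 3-month KO, 489, 306 and 439.7 in 6-month WT and 489.7, 464 and 275 in 6-month KO. The 3-month WT values lay close together, while the 3-month KO values ran from near the lowest to the highest of the 12. Pdia6, another protein disulfide isomerase gene, stood at 439, 515 and 373 FPKM in 3-month WT, 521, 765 and 128 in 3-month KO, 294, 184 and 239.7 in 6-month WT and 379, 253 and 148 in 6-month KO, and for it 3-month WT lay wholly above 6-month WT. P4hb, which encodes the classical isomerase, stood at 315, 288 and 294 FPKM in 3-month WT, 337, 592 and 169 in 3-month KO, 243, 197 and 146 in 6-month WT and 303, 239 and 123 in 6-month KO. As for Pdia6, all 6-month WT values of P4hb lay below all 3-month WT values. Pdia4 ranged from 31.0 FPKM in 6-month KO library 3 to 159 in 3-month KO library 2. Ero1l, the oxidase that recharges these enzymes, stood at 42.5, 33.96 and 14.6 FPKM in 3-month WT, 35.9, 20.4 and 8.92 in 3-month KO, 19.4, 23.3 and 22.7 in 6-month WT and 10.5, 25.1 and 8.79 in 6-month KO, with overlapping groups. Creld2 stood at 330.1, 198 and 156 FPKM in 3-month WT, 221, 256 and 38.6 in 3-month KO, 161, 125 and 115 in 6-month WT and 135, 171 and 25.1 in 6-month KO. Its values in the KO libraries 3 were below all others, and its highest was 13.2 times its lowest.

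Degradation factors differed most among themselves in spread, with SD within groups of 0.34 to 1.21 log2 units. Selk (now Selenok, chr14:29968308-29975662, plus strand), a selenoprotein that binds derlins, stood at 560.2, 669 and 388 FPKM in 3-month WT, 223, 241 and 279 in 3-month KO, 264, 306 and 712 in 6-month WT and 252, 244 and 462 in 6-month KO. All 3-month KO values were below all 3-month WT values, and the highest value was that of 6-month WT library 3. Vimp (now Selenos), its partner selenoprotein, stood at 225, 224 and 188 FPKM in 3-month WT, 143, 169 and 106 in 3-month KO, 107, 112 and 227 in 6-month WT and 133, 106 and 180.0 in 6-month KO, with the same separation at 3 months. Herpud1 (chr8:94386438-94395377, plus strand), a scaffold of the degradation complex, stood at 729, 145 and 52.5 FPKM in 3-month WT, 48.8, 162 and 38.8 in 3-month KO, 53.9, 65.2 and 37.6 in 6-month WT and 108, 91.4 and 31.4 in 6-month KO. Its 3-month WT mean rests on library 1, whose value was 23.2 times the lowest of the 12. Derl1 (chr15:57869502-57892448, minus strand), which encodes a channel subunit, stood at 62.5, 55.4 and 29.1 FPKM in 3-month WT, 29.7, 31.6 and 26.5 in 3-month KO, 23.2, 21.7 and 23.9 in 6-month WT and 18.4, 21.1 and 34.8 in 6-month KO, with all 6-month WT values below all 3-month WT values. Derl2 ranged from 18.8 to 38.9 FPKM and Derl3 from 26.1 to 249. Syvn1, which encodes the ubiquitin ligase HRD1, ranged from 1.41 to 8.43 FPKM. Its partner Sel1l stood at 18.9, 8.74 and 15.2 FPKM in 3-month WT, 17.3, 8.67 and 7.96 in 3-month KO, 18.4, 20.4 and 29.0 in 6-month WT and 13.0, 22.3 and 13.4 in 6-month KO, with overlapping groups. The mannose-trimming genes Edem1 and Edem2 ranged from 3.04 to 19.8 and from 17.9 to 63.7 FPKM.

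Translocation genes had SD within groups of 0.28 to 0.47 log2 units. Sec61b, a subunit of the channel through which new proteins enter, stood at 513, 1389 and 887 FPKM in 3-month WT, 654, 626 and 664 in 3-month KO, 684, 691 and 907 in 6-month WT and 629.9, 649 and 1241 in 6-month KO. Its highest values were in 3-month WT library 2 and 6-month KO library 3, and the groups overlapped. Sec61a1, the pore subunit, stood at 38.9, 45.6 and 26.6 FPKM in 3-month WT, 45.6, 44.9 and 20.9 in 3-month KO, 34.9, 31.0 and 18.03 in 6-month WT and 33.5, 34.8 and 30.9 in 6-month KO. Ssr1, a subunit of a complex beside the channel, ranged from 8.08 to 16.6 FPKM.

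**Figure D2:**
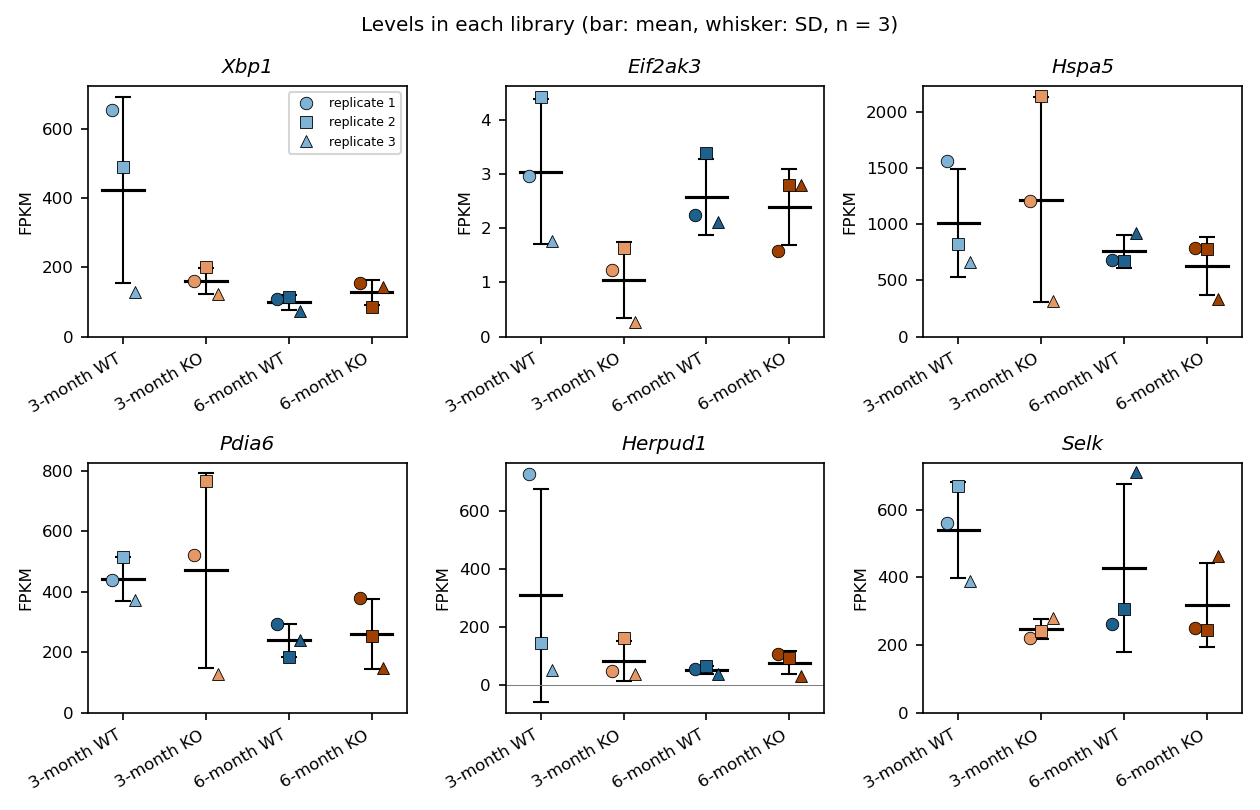
FPKM (vertical axis, linear) of Xbp1, Eif2ak3, Hspa5, Pdia6, Herpud1 and Selk for the libraries of each group (horizontal axis), where a symbol's shape gives its library number, the bar is the mean and the whisker the SD (n = 3). The 3-month KO values of Eif2ak3 and Selk lie below all 3-month WT values, Hspa5 in 3-month KO spans 313 to 2141 FPKM, and the Herpud1 mean in 3-month WT is set by a value of 729.

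At 3 months 29 of 34 members had a negative KO minus WT difference and no member was called. Selk, Eif2ak3 and Xbp1 had the smallest p. Selk averaged 248 ± 28.7 FPKM in KO and 539 ± 142 in WT (SD, n = 3), a log2 difference of -1.09 ± 0.38 (SE; limma, unadjusted p = 0.0149, adjusted p = 0.664). Eif2ak3 differed by -0.997 ± 0.379 (adjusted p = 0.69) and Xbp1 by -1.13 ± 0.50 (adjusted p = 0.73). Next by p were Derl1 (-0.66 ± 0.32, adjusted p = 0.747) and Vimp (-0.63 ± 0.32, adjusted p = 0.762), so none of these 5 passed. Hspa5, the usual marker of the response, differed by -0.02 ± 0.61 (adjusted p = 0.999), with 1221 ± 914 FPKM in KO and 1015 ± 481 in WT, so the order of its means differs between the linear and the log scale. Herpud1 had the lowest log2 difference, -1.38 ± 0.83 (adjusted p = 0.779).

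Of the 34 members, 0 passed an adjusted p of 0.05 in limma, against 0.00893% of all genes tested, and 3 had an unadjusted p under 0.05, against 6.8% of all genes. The groups did not overlap for 5 members lower in KO (Atf6, Eif2ak3, Derl2, Selk and Vimp) and 0 higher, where the shares of all genes were 5.22% and 5.02%. The median log2 difference was -0.37, with 29 of 34 below 0, and the median of all genes tested was 0.01, with 48.7% below 0. By role the medians were -0.61 for the 5 sensors and their transcription factors, -0.31 for the 10 chaperones and -0.16 for the 6 disulfide enzymes. They were -0.64 for the 10 degradation factors and -0.25 for the 3 translocation genes. The members above 0 were Atf6b, Hyou1, P4hb, Pdia4 and Edem2, at 0.07 to 0.36. The median moved most towards 0 when 3-month KO library 3, which was high in theca, blood and oocyte markers, was left out. Without it the median was -0.14 and 20 of 34 members were below 0, and without KO library 2 the median was -0.62. Selk, Eif2ak3 and Xbp1 differed by -1.18, -0.69 and -0.95 without KO library 3. Xbp1 differed by -0.67 without WT library 1 and by -1.84, with the smallest adjusted p (0.0859), without WT library 3, where Derl1 differed by -0.99. Without library 3 of all 4 groups, a fit chosen after seeing the data, Selk was called (-1.40, adjusted p = 0.0474) among 0.402% of all genes, Xbp1 was not (-1.66, adjusted p = 0.0627), and the median was -0.26. With 1 library left out, members with an unadjusted p under 0.05 numbered from 0 without WT library 2 to 8 without KO library 2. The shares of all genes in these fits were 3.5% and 6.51%. Without WT library 3 there were 6 such members, with 10.6% of all genes.

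**Figure D3:**
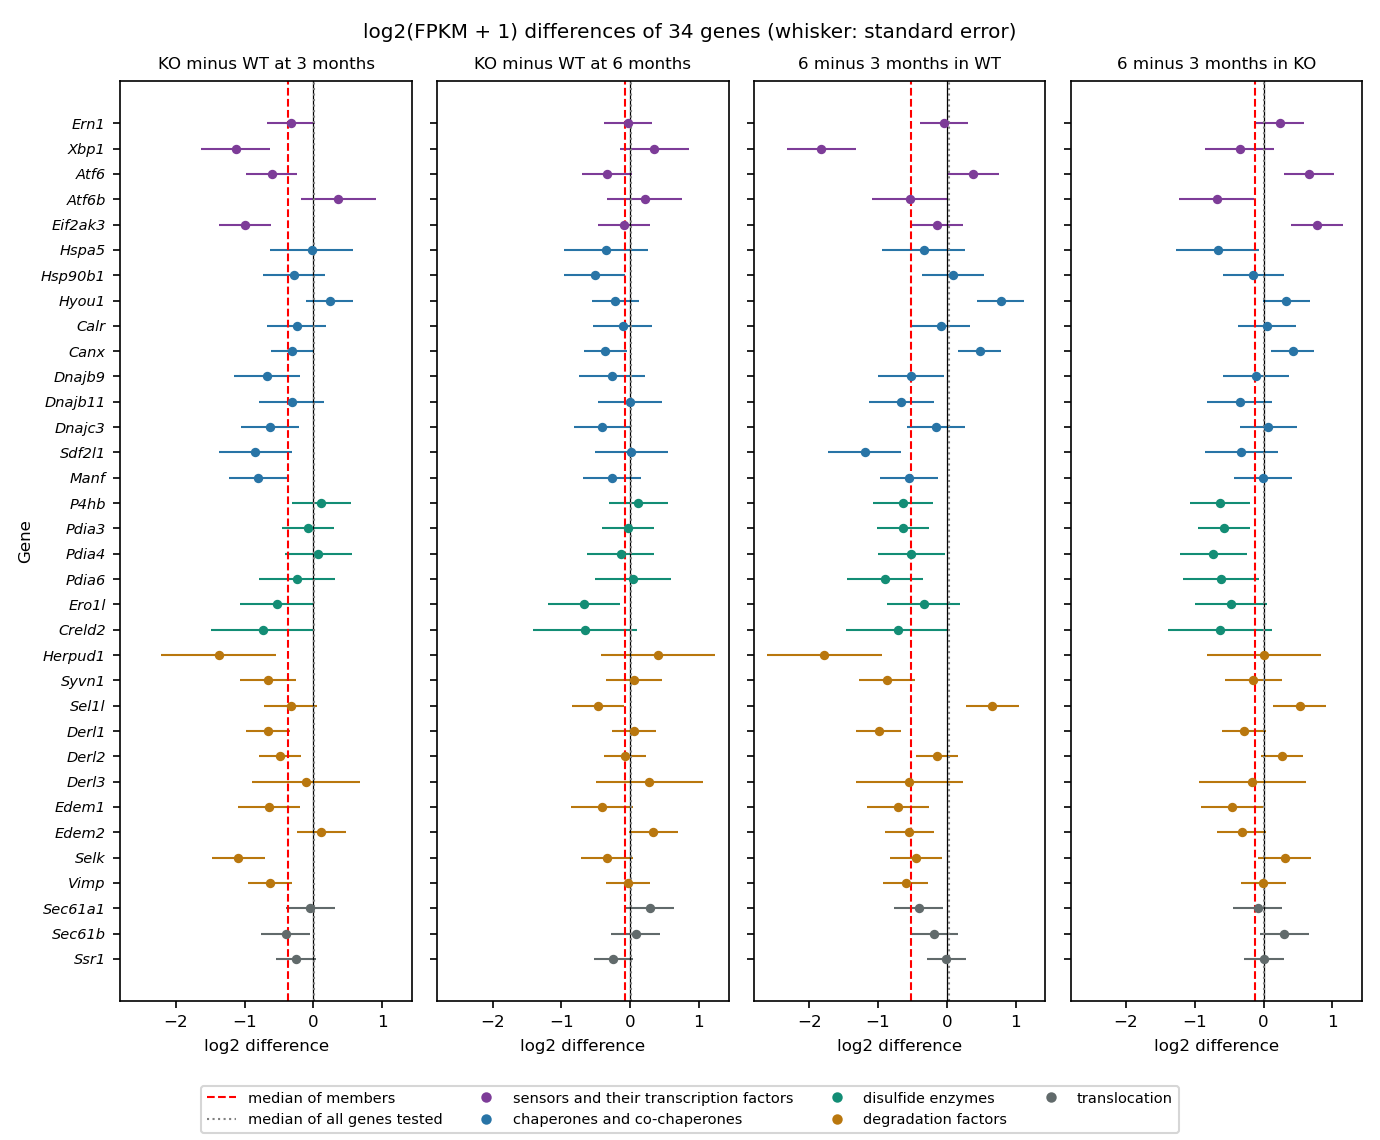
Differences in log2(FPKM + 1) (horizontal axis) of the 34 genes (vertical axis, coloured by role) in 4 comparisons, with standard errors as whiskers, a red dashed line at the median of the genes and a grey dotted line at the median of all genes tested. The red line lies at -0.37, -0.08, -0.52 and -0.13 from left to right, and the largest single differences, those of Xbp1 and Herpud1, are in the comparison of ages in WT.

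At 6 months 22 of 34 members had a negative KO minus WT difference, and again no member was called. Ero1l had the smallest p, with 14.8 ± 8.98 FPKM in KO and 21.8 ± 2.08 in WT (SD, n = 3) and a log2 difference of -0.67 ± 0.53 (SE; limma, adjusted p = 1.0). Sel1l (-0.47 ± 0.38), Canx (-0.36 ± 0.31), Hsp90b1 (-0.52 ± 0.45) and Dnajc3 (-0.40 ± 0.42) followed, each with an adjusted p of 1.0. Hspa5 differed by -0.35 ± 0.61 and Xbp1 by 0.35 ± 0.50. In limma 0 members passed, against 0.0268% of all genes, and 0 had an unadjusted p under 0.05, against 1.22%. Edem1 and Ssr1 did not overlap between groups and were lower in KO, while 0 members were higher (3.01% and 3.79% of all genes). The median was -0.08 with 22 of 34 below 0, and the median of all genes was 0.01. Among the chaperones 9 of 10 were below 0, with a median of -0.26, and the degradation factors were split 5 to 5. The sign of the median changed when KO library 3, in which theca and stromal markers summed to 10110 FPKM, was left out. Without it the median was 0.06 and Hspa5 and Dnajc3 differed by 0.06 and 0.05, whereas leaving out any of the other 5 libraries gave medians of -0.19 to -0.05. Without WT library 3, Canx differed by -0.03, Hsp90b1 by -0.20, Sel1l by -0.28, Hspa5 by -0.20 and Xbp1 by 0.17. Ero1l differed by -1.10 without KO library 2 and by -0.40 without KO library 3.

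With age in WT, 29 of 34 members had a negative difference of 6 minus 3 months, the most negative being that of Xbp1, although no member was called. Xbp1 averaged 98.5 ± 20.8 FPKM at 6 months and 424 ± 268 at 3 months (SD, n = 3), a log2 difference of -1.82 ± 0.50 (SE; limma, unadjusted p = 0.00355, adjusted p = 0.664). Derl1 differed by -0.99 ± 0.32 and Sdf2l1 by -1.19 ± 0.53, both with an adjusted p of 0.664. Herpud1 differed by -1.78 ± 0.83 (adjusted p = 0.664). Hyou1 went the other way, with 2.96 ± 0.204 FPKM at 6 months and 1.33 ± 0.485 at 3 months and a log2 difference of 0.78 ± 0.35 (adjusted p = 0.664). Without 3-month WT library 3, the lowest of its group for Xbp1, that gene differed by -2.53 with an adjusted p of 0.0322 and was the only member called; leaving out any of the other 5 libraries gave 0 called members. The share of all genes called without that library was 0.0893%. That library was also the highest of its group in theca and stromal markers, at 752 FPKM against 76.7 and 50.3. Of these theca and stromal sums Cyp11a1 gave 547 FPKM against 63.4 and 42.4. Blood and leukocyte markers of that library stood at 740 FPKM against 4.58 and 14.1. For surface epithelium markers it was the lowest of its group, at 32.9 FPKM against 44.6 and 249. The part of other cells in the call was not tested. Without library 3 of all 4 groups Xbp1 differed by -2.35 (adjusted p = 0.0367, with 0.348% of all genes called) and Derl1 by -1.35 (adjusted p = 0.0588). Herpud1 differed by -0.77 without 3-month WT library 1, and Sdf2l1 by -0.74 without 6-month WT library 3.

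In the comparison of ages in WT, limma called 0 of 34 members and 0.00893% of all genes, and an unadjusted p under 0.05 was found for 4 members and for 7.44% of all genes. Groups did not overlap for 8 members lower at 6 months, against 7.81% of all genes, and for 1 member higher, Hyou1, against 7.94%. The 8 were Xbp1, Dnajb11, Dnajc3, P4hb, Pdia3, Pdia6, Syvn1 and Derl1. The median was -0.52 with 29 of 34 below 0, and the median of all genes was 0.03 with 48.1% below 0. All 6 disulfide enzymes were below 0, at -0.90 to -0.34 with a median of -0.64. Pdia3 averaged 628 ± 13.7 FPKM at 3 months and 412 ± 94.6 at 6 months, and P4hb 299 ± 14.2 and 195 ± 48.1. Degradation factors had a median of -0.57, with 9 of 10 below 0, chaperones of -0.25 and sensors with their transcription factors of -0.14. Hyou1, Canx, Hsp90b1, Sel1l and Atf6 were above 0. Leaving out each library in turn gave medians of -0.64 to -0.39. This comparison shares its 3-month WT libraries with that of KO and WT at 3 months, so the negative medians of both rest in part on the same 3 libraries.

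Between the ages in KO 21 of 34 members had a negative difference and no member was called. The sensors Eif2ak3 (0.77 ± 0.38, adjusted p = 0.745) and Atf6 (0.66 ± 0.37, adjusted p = 0.753) had the smallest p, with higher means at 6 months. Pdia3 (-0.58 ± 0.38), Pdia4 (-0.73 ± 0.49) and P4hb (-0.64 ± 0.43) followed with adjusted p of 0.762 to 0.765 in limma, and all 6 disulfide enzymes were below 0 with a median of -0.62. Called members numbered 0 (0.0179% of all genes), as did those with an unadjusted p under 0.05 (6.48% of all genes). With the replicate number as a block, 4 members had an unadjusted p under 0.05 (9.82% of all genes) and the smallest adjusted p was 0.492. Without 3-month KO library 3 there were 8 (11.8% of all genes), with a smallest adjusted p of 0.357. In that fit Pdia3, Pdia4 and P4hb differed by -1.04, -1.29 and -1.10, and without 3-month KO library 2 by -0.24, -0.38 and -0.20. Only Canx had groups that did not overlap, with 99.8 ± 7.64 FPKM at 6 months against 74.2 ± 7.29 at 3 months, where shares of all genes were 5.98% lower and 6.82% higher. The median of the 34 was -0.13 with 21 below 0, and the median of all genes was 0.01. Its sign depended on single libraries. The median was 0.02 without 3-month KO library 1, 0.10 without KO library 2, -0.47 without KO library 3 and -0.03 without 6-month KO library 3.

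The difference of the KO effect between ages was tested as the interaction of genotype and age. Xbp1 had the smallest p, with an interaction of 1.48 ± 0.71 on the log2 scale, since KO minus WT was -1.13 at 3 months and 0.35 at 6 months. Eif2ak3 (0.91 ± 0.54), Derl1 (0.71 ± 0.46), Herpud1 (1.79 ± 1.18) and Selk (0.75 ± 0.54) followed, and all 5 had an adjusted p of 1.0 in limma. Calls were 0 of 34 (0.00893% of all genes), and 0 had an unadjusted p under 0.05 (2% of all genes). The median was 0.28 with 26 above 0, against 0.01 for all genes. It was -0.04 without 3-month KO library 3, 0.03 without 6-month KO library 1, 0.18 without 3-month WT library 2 and 0.50 without 3-month KO library 2.

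**Figure D4:**
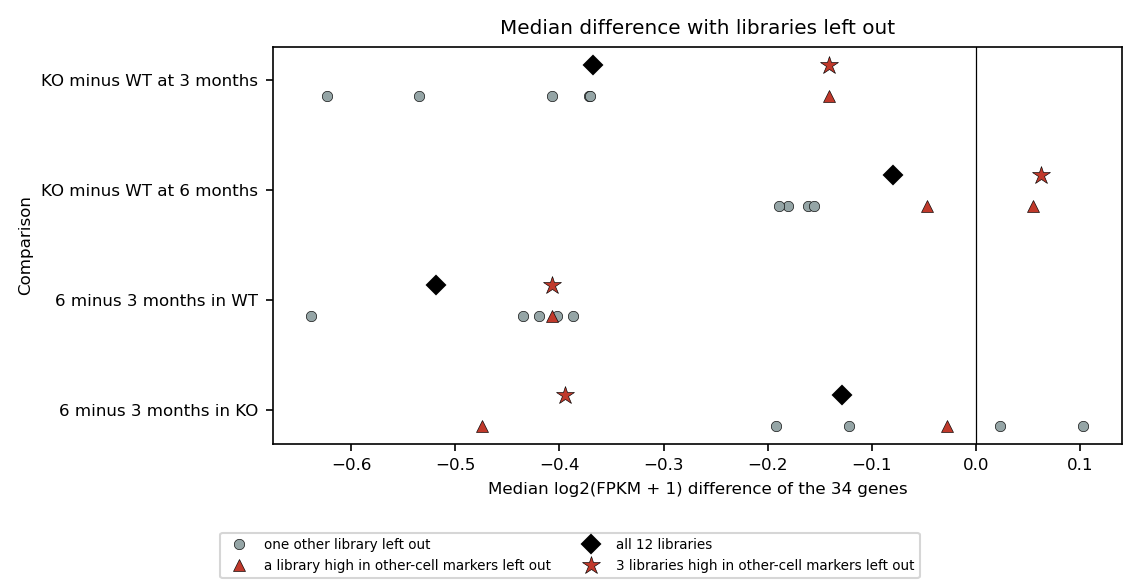
Median log2(FPKM + 1) difference of the 34 genes (horizontal axis) in 4 comparisons (vertical axis) with all 12 libraries (diamonds), with 1 library of the groups compared left out (circles and triangles) and with 3-month KO library 3, 6-month WT library 3 and 6-month KO library 3 left out together (stars). The medians for KO against WT at 3 months run from -0.62 to -0.14, those for the ages in WT from -0.64 to -0.39, and the other 2 comparisons have values on both sides of 0.

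Libraries differed along a pattern that ran across roles. The mean centred level of all 34 genes was 0.54 and 0.47 log2 units in 3-month WT libraries 1 and 2 and 0.41 in 3-month KO library 2, and -0.75 and -0.52 in the KO libraries 3 of 3 and 6 months. In the other 7 libraries it was -0.13 to 0.10. Of the 34 genes, 22 had their lowest value in a KO library 3 (13 at 3 months and 9 at 6 months) and 0 their highest. Of all 11196 genes tested, 23.9% had their lowest value in one of these libraries and 29.3% their highest. Both of these libraries lay below the other 10 for 13 of the 34 genes, and for 7.73% of all genes tested. These were Atf6b, 6 of 10 chaperones (Hspa5, Hsp90b1, Calr, Dnajb11, Dnajc3 and Manf), 4 of 6 disulfide enzymes (Pdia4, Pdia6, Ero1l and Creld2), Edem1 and Ssr1. Disulfide enzymes stood at -1.01 and -1.27 in these libraries. Degradation factors stood at -0.51 and -0.35, and translocation genes at -0.50 and 0.14. In the same libraries the theca and stromal markers stood at 3.89 and 4.33 and the oocyte markers at 2.00 and 3.33. These libraries also had the highest FPKM sums. Their scaling factors by median of ratios were 0.997 and 0.982, where all 12 libraries had 0.941 to 1.07. The part of RNA from other cells, or of the higher sums, in the low levels was not tested. 6-month WT library 3, with the highest blood and leukocyte sum, had a mean over the 34 genes of -0.04, with 7 genes at their highest value and 4 (Xbp1, Sdf2l1, Edem2 and Sec61a1) at their lowest.

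Whether chaperone genes move with Hspa5 was asked across the 12 libraries, for 8 genes in all, on log2(FPKM + 1). Both genes of a relation share each library. Permutations moved libraries freely across groups, and the share of all genes that follow Hspa5 was not computed. Hsp90b1 followed Hspa5 with Pearson's r = 0.851 (permutation p = 0.00126, adjusted over the 8 p = 0.00336) and Spearman's rho = 0.867 (permutation p = 0.00041, adjusted p = 0.00328). For Pdia4 r was 0.84 (permutation p = 0.00067, adjusted p = 0.00268) and rho 0.783 (permutation p = 0.00379, adjusted p = 0.0152). For Calr r was 0.833 (permutation p = 0.00038, adjusted p = 0.00268) and rho 0.713 (permutation p = 0.0119, adjusted p = 0.0318). Without the 2 libraries farthest from the median of Hspa5, 3-month KO libraries 2 and 3, these r were 0.781, 0.745 and 0.72. The KO libraries 3 lie apart in these plots. Without these and 6-month WT library 3 (n = 9), Hsp90b1 (r = 0.929, adjusted permutation p = 0.00784) and Pdia4 (r = 0.794, adjusted permutation p = 0.0383) still passed and Calr (r = 0.66, adjusted permutation p = 0.127) did not. Without library 3 of all 4 groups (n = 8) Hsp90b1 passed (r = 0.962, adjusted permutation p = 0.0032), and Pdia4 (r = 0.776, adjusted permutation p = 0.0936) and Calr (r = 0.723, adjusted permutation p = 0.0984) did not. Within groups, deviations from the group means correlated at 0.914, 0.827 and 0.89, for which no p was computed. Herpud1 passed by r alone (r = 0.666, permutation p = 0.0196, adjusted p = 0.0392; rho = 0.587, permutation p = 0.0476, adjusted p = 0.0951), its r was 0.651 without the 2 farthest libraries, and it did not pass without the KO libraries 3 and 6-month WT library 3 (r = 0.608, adjusted permutation p = 0.127).

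The transcription factor gene Xbp1 was not shown to follow Hspa5 (r = 0.409, permutation p = 0.188, adjusted p = 0.301; rho = 0.476, permutation p = 0.121, adjusted p = 0.161; r = 0.441 without the 2 farthest libraries). The same held for Dnajb9, a target of XBP1 (r = 0.251, permutation p = 0.432, adjusted p = 0.576; rho = 0.483, permutation p = 0.116, adjusted p = 0.161). Ddit3, the transcription factor gene CHOP at the end of the PERK arm, had r = -0.132 (permutation p = 0.688, adjusted p = 0.786) and rho = -0.126 (permutation p = 0.7, adjusted p = 0.8). Hspd1, which encodes the mitochondrial chaperonin, had r = 0.00841 (permutation p = 0.979, adjusted p = 0.979) and rho = 0.0629 (permutation p = 0.853, adjusted p = 0.853). Without the 2 farthest libraries r was 0.221, 0.0408 and -0.0296 for these last 3 genes.

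**Figure D5:**
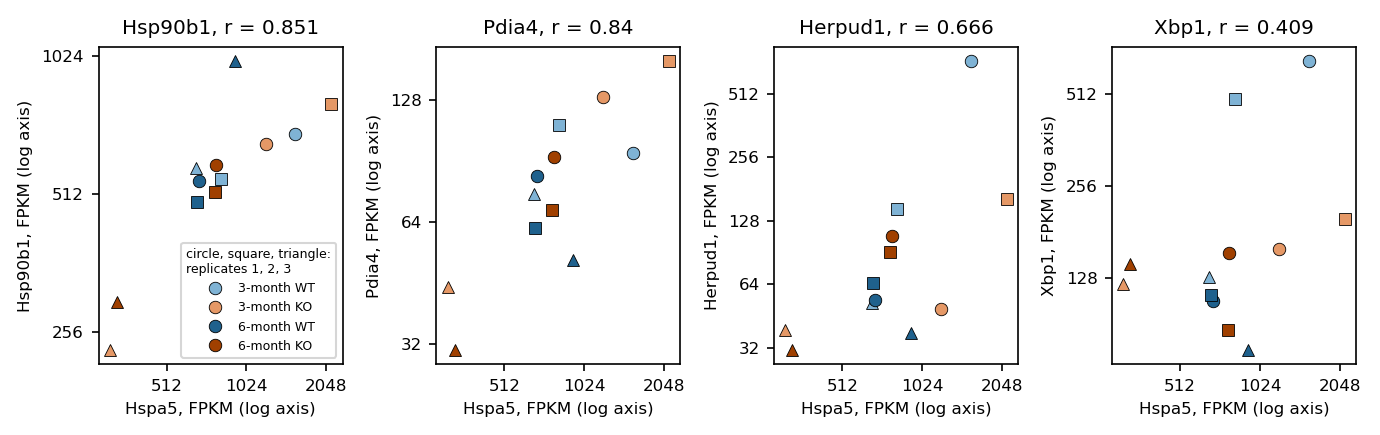
Levels of Hsp90b1, Pdia4, Herpud1 and Xbp1 (vertical axes) against Hspa5 (horizontal axes), all FPKM on log axes, with 1 point per library, coloured by group and shaped by library number. Hsp90b1 (r = 0.851) and Pdia4 (r = 0.84) climb with Hspa5 with the 2 KO libraries 3 at the bottom left, while the high Xbp1 values (r = 0.409) of 3-month WT libraries 1 and 2 stand above the other points.

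Members with and without an ERSE match can be set side by side as a description. The 9 with a match had a median log2 difference of -0.28 for KO against WT at 3 months, with 9 of 9 below 0. The 20 with a promoter and no ERSE match had -0.45, with 16 below 0. These 20 included Herpud1 and Dnajb11, which held the shorter ERSE-II. Without 3-month KO library 3 the medians were 0.13 and -0.22, with 4 of 9 and 13 of 20 below 0. At 6 months the medians were -0.35 and -0.03, and without KO library 3 of that age 0.09 and -0.02. For the ages in WT they were -0.34 and -0.53, and for those in KO -0.15 and -0.22. The 8 other tested genes with an ERSE had -0.42 at 3 months and 0.08 at 6 months. Alg12, which shares the site of Creld2, differed by -0.48 and -0.68, and Creld2 by -0.73 and -0.65.

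Genes around the module were taken from lists, and 0 of their genes passed in any of the comparisons in limma. Of the 10 genes at the output of the PERK arm, 9 were tested. Atf4, the transcription factor translated when PERK is active, stood at 694, 445 and 175 FPKM in 3-month WT, 199, 278 and 211 in 3-month KO, 205, 229 and 133 in 6-month WT and 203, 154 and 211 in 6-month KO, and was highest in the same 2 libraries as Xbp1. Ddit3 stood at 372, 104 and 65.9 FPKM in 3-month WT, 15.7, 59.2 and 143 in 3-month KO, 65.3, 117 and 167 in 6-month WT and 127, 20.1 and 125 in 6-month KO, with overlapping groups. Chac1, a target of ATF4 that degrades glutathione, stood at 158 FPKM in 3-month WT library 1, 15.5 in WT library 2 and 8.74 or less in the other 10. The mean centred level of the 9 was 2.14 log2 units in 3-month WT library 1 and -0.85 to 0.73 in the other 11. Their median KO minus WT was -0.48 at 3 months (7 of 9 below 0) and 0.03 at 6 months (4 of 9), and 6 minus 3 months was -0.52 in WT and -0.27 in KO. Without 3-month WT library 1 the medians were 0.12 at 3 months (4 of 9 below 0) and -0.16 with age in WT. At 3 months the smallest p were those of Chac1 (-3.05 ± 1.46, adjusted p = 0.747), Atf3 (1.16 ± 0.66, adjusted p = 0.773) and Atf4 (-0.74 ± 0.42, adjusted p = 0.774). In WT with age Asns, an ATF4 target that makes asparagine, differed by -2.13 ± 0.62 (adjusted p = 0.664).

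Further genes of the endoplasmic reticulum were described from lists in the same way. Of 30 other folding and quality control genes 23 were below 0 at 3 months (median -0.21), led by Edem3 (-0.93 ± 0.38, adjusted p = 0.719), Ube2j1 (-0.72 ± 0.34, adjusted p = 0.747) and Ubxn4 (-0.57 ± 0.28, adjusted p = 0.747). Of 31 other translocation and glycosylation genes 24 were below 0 (median -0.26), and for 7 of them all KO values lay below all WT values, against 5.22% of all genes. Without 3-month KO library 3, high in theca, blood and oocyte markers, 16 of the 30 (median -0.04) and 23 of the 31 (median -0.16) were below 0. The signal recognition particle gene Srp19 differed by -0.66 ± 0.25 (adjusted p = 0.69), the oligosaccharyltransferase gene Ostc by -0.71 ± 0.28 (adjusted p = 0.704) and the signal peptidase gene Sec11a by -0.69 ± 0.29 (adjusted p = 0.725). At 6 months these lists had medians of -0.03 and -0.02. With age in WT they had -0.14 and -0.25, and in KO 0.03 and 0.01. The 12 tested regulators of the sensors, of 13, had a median of 0.06 at 3 months, with 5 below 0. Among them Tmbim6, an inhibitor of cell death in this membrane, differed by -0.69 ± 0.34 (adjusted p = 0.747). Transcripts known as cut by IRE1 (4 of 6 tested) had medians of 0.30 at 3 months, 0.28 at 6 months, 0.64 with age in WT and 0.81 with age in KO. Without the KO library 3 of the age they were -0.39 at 3 months and -0.23 at 6 months, and without that of 6 months 0.07 with age in KO. Among these Hgsnat differed by 1.14 ± 0.36 at 3 months (adjusted p = 0.664). Sparc and Col6a1, also in that list, stood highest in 6-month KO library 3, at 266 and 40.8 FPKM, the library with the highest theca and stromal marker sum.

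Chaperones of other compartments were set beside the members. At 3 months 7 of 7 mitochondrial chaperones and proteases were above 0 in KO, with a median of 0.52. Hspd1 stood at 219, 297 and 257 FPKM in 3-month WT, 499.8, 477 and 474 in 3-month KO, 275, 220.5 and 309 in 6-month WT and 232, 219 and 348 in 6-month KO, so its 3-month KO libraries lay above the other 9. Its log2 difference at 3 months was 0.92 ± 0.24 (limma, unadjusted p = 0.00234, adjusted p = 0.628). At 6 months the median of the 7 was 0.16, with age in WT -0.09 and with age in KO -0.67. The 10 cytosolic heat shock genes had a median of 0.17 at 3 months, with 4 below 0, and of -0.76 at 6 months, with 10 below 0. At 6 months Hsp90aa1 differed by -0.90 ± 0.42, Dnajb1 by -1.20 ± 0.60 and Hsph1 by -1.05 ± 0.52, each with an adjusted p of 1.0. With age these genes had medians of -0.19 in WT and -1.12 in KO. Their mean centred level was 1.97 log2 units in 3-month KO library 1 and 0.04 and -0.24 in KO libraries 2 and 3, and without KO library 1 the medians were -0.66 with age in KO and -0.30 for KO against WT at 3 months. Without 3-month WT library 2 the median with age in WT was 0.27, and without 6-month WT library 3 that of KO against WT at 6 months was -0.41.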

How the data were processed

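RNA of 100 cumulus cells per mouse was amplified by Smart-Seq2 and sequenced from Nextera XT libraries, per the labels' protocols. The authors deposited a table of FPKM values per gene, and the submitters' processing notes name Cufflinks 1.2.1, TopHat2 2.0.10 with Bowtie2 2.1.0, SAMtools 0.1.18, FastQC and cutadapt, with the GRCm38/mm10 genome. The sources used here do not give the gene annotation, and neither counts nor depth are in the table, so no counting error is given per value. No 2 of the 12 libraries (66 pairs) were identical.

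Genes with at least 1 FPKM in at least 3 libraries (11196) were analysed as log2(FPKM + 1) in R 4.3.3 with limma 3.58.1 (4 group means, 8 residual and 3.9 prior degrees of freedom, eBayes with trend). Fold changes on this scale understate those of low genes. P-values are 2-sided, adjusted by Benjamini and Hochberg over all genes tested, with a threshold of 0.05. They rest on a spread between mice that was pooled over the 4 groups, with 3 mice per group, and moderated across genes. Single groups could differ from it, as for Pdia3, with an SD of 13.7 FPKM in 3-month WT and 322 in 3-month KO. The fit was tested on simulated data with independent normal noise and the same spread in every group. That test does not cover unequal spreads or shifts of a whole library. Full statistics were given for the 5 members with the smallest p in each comparison, Hspa5 and Xbp1, values in every library for the 2 most abundant members of each class, and up to 3 genes for other lists. Other values named were picked after they were seen. Members and lists were chosen with earlier results of these data known. Alternatives were another pseudocount, filters, a rescaling, a replicate block, the compared groups alone, and libraries left out. The fit without library 3 of all 4 groups was added after seeing the data, since 3-month WT library 3, kept when 3 libraries high in other-cell markers were dropped, had a blood marker sum of 740 FPKM.

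No main fit paired libraries, and the replicate block was an alternative run for every comparison. Whether same-numbered libraries could be paired was looked at through the 3 correlations of their deviations from group means. All 3 were over 0.1 only for KO against WT at 6 months (0.16, 0.37 and 0.47) and the ages in KO (0.11, 0.39 and 0.65). In both, library 1 correlated best with number 2, so a pairing would rest on the data alone. Such pairing and other-cell RNA shared by the libraries 3 cannot be told apart.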

Additional observations from a re-analysis of the deposited data

How the results depend on the processing

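The count of called members was 0 under 72 of 75 alternatives. The exceptions were 1 called member without library 3 of all 4 groups for KO against WT at 3 months (Selk, -1.397) and for the ages in WT (Xbp1, -2.346), and 0 to 1 for the ages in WT with 1 library left out (Xbp1, -2.532). The median of the members moved by less than 1 SD between libraries in 66 of 66 alternatives that could move it. This SD ran from 0.194 for the ages in WT to 0.471 for those in KO. It exceeded the median itself, sign aside, in every comparison but the ages in WT. A median could thus reach 0 or change sign and still count as unmoved. With 1 library left out, the median changed sign for KO against WT at 6 months (-0.08 to 0.055). It also did so for the ages in KO (-0.129 to 0.103) and for the interaction (0.277 to -0.04). Of 413 differences of single members, 397 kept their sign and side of the threshold, 13 changed sign and 3, named above, passed. The replicate block, as a paired fit, and the fit to the compared groups alone cannot move a difference in this balanced design (medians of -0.368, -0.08, -0.518, -0.129 and 0.277), and neither changed a call. The Hspa5 difference at 3 months (-0.023) was 0.013 after rescaling by median of ratios, 0.764 without 3-month KO 3, 6-month WT 3 and 6-month KO 3, 0.504 without all 4 libraries 3, and -0.622 to 0.764 with 1 library left out. At 6 months, without those 3 or all 4 libraries, Hsp90b1, Dnajc3 and Hspa5 differed by 0.094, 0.054 and 0.21; with 1 library left out, Dnajc3 ranged from -0.662 to 0.052 and Hspa5 from -0.561 to 0.058. The Herpud1 and Calr relations with Hspa5 fell short without the 3 libraries (r = 0.608 and 0.66), and those of Herpud1, Calr and Pdia4 without all 4 (r = 0.566, 0.723 and 0.776). That of Ddit3 was 0.09 without 3 and 0.084 without 4, and that of Hspd1 was -0.0655 after rescaling. Of 32 alternatives for relations, 24 kept sign and side. The cause of these shifts was not tested. With 3 mice per group even the Xbp1 difference with age in WT (-1.823, SE 0.503) was not called, so differences of that size can escape detection here.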
